A study of Mus musculus with 2 samples.

Results

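Cytosolic ribosomal protein genes encode the protein parts of the ribosome that translates nuclear messages. They were taken from the gene table by symbol, as the numbered Rpl and Rps genes with Rplp0, Rplp1, Rplp2 and Rpsa, without pseudogene symbols and without the Rps6k kinases. The rule found 84 of 32285 listed genes, 32 of the small and 52 of the large subunit, and used no measured value. A UMI, the unique tag of a captured RNA molecule, was found for 82 of them in each library, while Rpl10l and Rpl3l had none. For comparisons of single genes, 81 members had at least 10 counts per 1000000 UMIs (CPM) in 1 library and at least 20 UMIs in each. The member outside these limits, other than those with no UMI, was Rpl39l, with 33 UMIs in the lean and 67 in the obese library.

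The cells were CD8+ tumor-infiltrating lymphocytes (TIL) from B16-F0 tumors, a transplanted melanoma, in male C57Bl/6J mice aged 16 weeks. Lean mice had eaten normal chow (NC) and obese mice a western diet (WD), for 12 weeks from weaning at 4 weeks of age, and tumors were taken on day 14. No other treatment or allele is given for either group, and how many mice each library pooled is not stated in the sources used here. CD8+ cells were enriched on beads and sorted, and each diet was sequenced as 1 library of RNA 3′ ends, so that a long transcript gave no more UMIs than a short one and levels were not divided by length.

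A ribosome carries a single copy of most of its proteins, and the cell makes the messages of these proteins in step with each other. Most of these messages start with an unbroken run of pyrimidines, the terminal oligopyrimidine tract, through which their translation is turned up or down with growth signals such as those of mTOR. A resting T cell keeps a small ribosome pool, and an activated T cell enlarges it before it divides.

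Cells passed the filters if under 7.5% of their UMIs were mitochondrial and they held fewer than 50000 UMIs. The NC library then had 2456 cells with 27815785 UMIs, and the WD library had 2289 cells with 28705830 UMIs. The libraries shared 2 cell barcodes. The 6 T cell markers summed to 5722 CPM in NC and 5009 CPM in WD with none at 0, and 4 melanoma markers summed to 0.68 and 1.01 CPM. Cells were clustered without the ribosomal protein genes, so the clusters were not built from the members. They gave a naive- or memory-like cluster 2 (572 NC and 411 WD cells, led by Lef1, Satb1 and Tcf7), an effector-like cluster 3 (614 and 300 cells, granzyme genes) and a proliferating-like cluster 1 (480 and 583 cells, histone genes, Cks1b and Stmn1). Cluster 0 (505 and 787 cells) was led by Gzma and Ifit3, and cluster 5 (9 and 21 cells) was dendritic-like. Cluster 4 (276 and 187 cells) was left unnamed, since its median cell held 2503 UMIs in NC and 3013 in WD against 7958 and 9103 over all cells, and hemoglobin genes and Gm26917 led it. Hemoglobin markers were at 0 in the NC library and at 320 CPM in WD, nearly all from 1 droplet of cluster 4. Each diet has a single library without replicates, so no test was run. Intervals are exact 95% intervals that cover counting error only, and diet cannot be told apart from any other difference between the 2 libraries.

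Ribosomal protein messages made up 31.5% of all UMIs in the NC library (95% interval 31.46 to 31.50) and 31.2% in the WD library (31.16 to 31.20). The share was highest in naive- or memory-like cells, at 44.7% in NC and 44.6% in WD. It was lower and close together in the Gzma- and Ifit3-led cells (30.8% and 31.1%), the effector-like cells (30.03% and 30.7%) and the proliferating-like cells (29.0% and 29.2%). Naive- or memory-like cells thus gave members 1.54 times the share seen in proliferating-like cells in NC and 1.53 times in WD, a log2 ratio of 0.63 and 0.61. Against effector-like cells the log2 ratio was 0.57 in NC and 0.54 in WD. The few dendritic-like cells had 25.1% and 26.0%, and the cells of cluster 4 stood lowest, at 12.1% and 14.3%.

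The order of the states was not the same for the number of molecules. The median naive- or memory-like cell held 3400 member UMIs in NC and 3638 in WD, and the median proliferating-like cell held 6424 and 6623. Naive- or memory-like cells therefore held 0.53 (NC) and 0.55 (WD) times the member UMIs of proliferating-like cells, with a higher share. All other genes together gave 4091 and 4310 UMIs in the median naive- or memory-like cell and 15766 and 15842 in the median proliferating-like cell. The effector-like cell held 3383.5 and 4156 member UMIs, which in NC was nearly the number of the naive- or memory-like cell. The Gzma- and Ifit3-led cell held 1373 and 1806. Cells with at least 2000 UMIs were also thinned to that number, and cells with fewer were dropped. The naive- over proliferating-like log2 ratio, averaged over both libraries, was then 0.62, the same as the unthinned 0.62. Thinning leaves a cell's expected share unchanged and only evens the weight of cells. The agreement therefore says nothing about an effect of depth on the share.

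**Figure D1:**
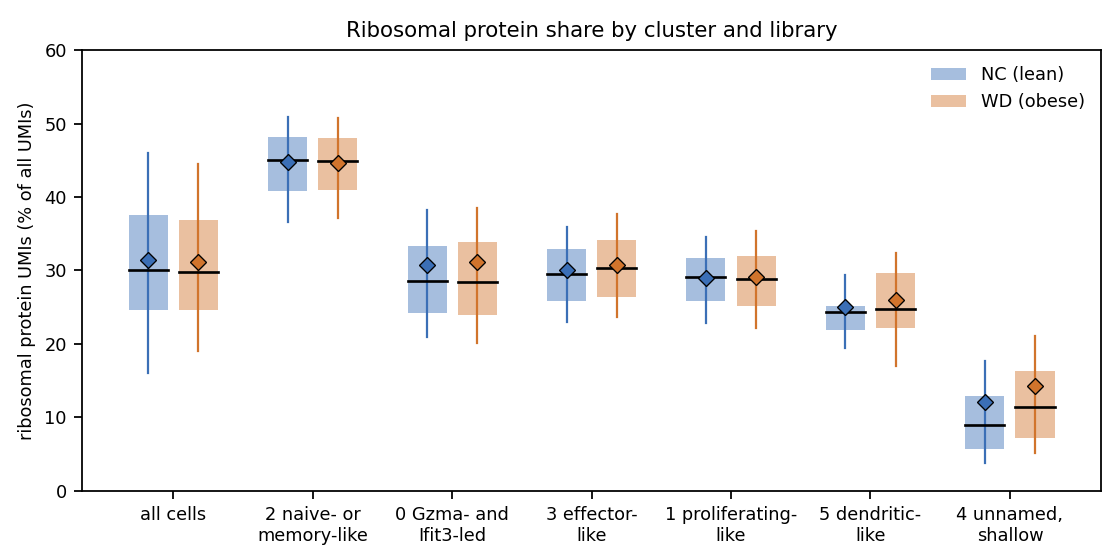
Ribosomal protein UMIs as a percentage of all UMIs, by cluster and library. Boxes span the lower to the upper quartile of cells, black lines are the median cell, thin lines run from the 10th to the 90th percentile of cells, and diamonds are the share over the summed UMIs; the naive- or memory-like diamonds sit at 44.7% and 44.6% and those of cluster 4 at 12.1% and 14.3%.

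A finer division into 13 clusters spread the share further. The Lef1- and Ccr7-led cells were highest, at 46.1% in NC and 45.6% in WD, and the Klra7-led cells followed at 44.4% and 43.9%. Within the effector-like cells, the Ccl1-led cells (100 NC and 123 WD) had 34.2% and 33.4%, against 29.3% and 29.2% in the cells led by Gzmd and Gzmf. Within the proliferating-like cells, the cells led by histone genes and Nusap1 had 27.4% and 27.5%, those led by Mcm3 and Cdca7, which act in DNA replication, had 29.8% and 29.9%, and 100 cells led by Xcl1 and Crtam had 38.1% and 36.2%. The Ifit3-led interferon cells had 33.4% in NC and 30.9% in WD, with 63 and 73 cells.

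The share also moved with depth inside some clusters. Across cells, Pearson's r between the share and the log2 of a cell's UMIs was 0.55 (NC, n = 505) and 0.60 (WD, n = 787) in the Gzma- and Ifit3-led cells, and 0.53 (n = 276) and 0.42 (n = 187) in cluster 4. It was 0.34 (NC, n = 572) and 0.31 (WD, n = 411) in the naive- or memory-like cells. In the effector-like cells r was 0.30 (n = 614) and 0.13 (n = 300), and in the proliferating-like cells 0.04 (n = 480) and 0.21 (n = 583). Cells of a cluster share 1 library, and UMIs of members are part of both measures. Of all kept cells, 158 in NC and 83 in WD had under 10% of their UMIs on members, and 156 and 82 of these were in cluster 4. Cells left out for a high mitochondrial share, which is commonly read as a sign of damage, were low as well, at 10.6% and 11.0%, while cells left out for 50000 or more UMIs had 28.5% and 29.2%.

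Among the members, levels spanned from the 2 genes with no UMI to 9720 CPM. The median member stood at 3852 CPM, the mean of both libraries, and 72 members had at least 1000 CPM. Rpl41, the smallest ribosomal protein, was highest at 9720 CPM in NC and 9003 CPM in WD. Rps29 followed at 9034 and 8560 CPM, Rps24 at 8438 and 8277 CPM, and Rps15a at 7970 and 7482 CPM. Rpl39, Rpl13, Rpsa (the laminin receptor protein), Rps20, Rpl37a and Rps28 completed the 10 highest, between 6295 and 7735 CPM. These 10 gave 25.3% of member UMIs in NC and 23.9% in WD. At the other end, Rps27l and Rpl7l1 were the only members within the limits under 500 CPM, at 354 and 61.5 CPM in NC and 367 and 62.4 CPM in WD.

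The upper limit that a count of 0 allows was 0.108 CPM in NC and 0.105 CPM in WD for Rpl10l, known from testis, and Rpl3l, known from muscle. Rpl39l, another member known from male germ cells, reached 1.19 and 2.33 CPM.

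In naive- or memory-like cells 72 of 81 members had a higher CPM than in proliferating-like cells, by unequal amounts. CPM are shares of all UMIs. The median naive- or memory-like cell held 7472.5 UMIs (NC) and 7895 (WD), and the median proliferating-like cell 22232 and 22807. A higher CPM here therefore does not mean more UMIs per cell. Past a fold of 1.5 in both libraries, 35 of 81 members were higher in naive- or memory-like than in proliferating-like cells, where 11.4% of all 6478 genes compared were. Lower past that fold in both were 2 members, Rps27l and Rpl7l1, where 34% of all genes were. The members' median log2 ratio was 0.55 and that of all genes was -0.39. Against effector-like cells, 23 of 81 members were higher, beside 6.79% of 6380 genes, and 2 were lower (again Rps27l and Rpl7l1), beside 25.8%. The medians were 0.49 for members and -0.31 for all genes. The 2 contrasts share the naive- or memory-like cells. CPM sum to a fixed total, so the higher member share in these cells itself lowers the CPM of other genes. The medians and counts of all genes are therefore not independent of the members.

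Both subunits took part. Of 32 small subunit members 16 were past the fold, with a median log2 ratio over proliferating-like cells of 0.62, and of 49 large subunit members 19 were, with a median of 0.45. Small subunit genes gave 47.7% (NC) and 47.8% (WD) of member UMIs in naive- or memory-like cells, 44.5% and 45.1% in proliferating-like cells, and 42.3% and 43.9% in cluster 4. Across the 81 members Pearson's r between the log2 ratio and the log2 CPM was 0.66. Rps27l and Rpl7l1, the 2 members lowest in level and the only 2 lower past the fold, weigh in this value. The r without them was not computed, and Rpl41, the highest in level, had a ratio of -0.12. Between the ratio and the length of the coding sequence r was -0.09, and both values are descriptions over genes of the same libraries. The median ratio was nevertheless 0.82 for the 10 members with under 300 coding bases and 0.35 for the 23 with over 600, and Rps27l, described with its pair, is among the short members at -2.73.

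Rps27, a zinc finger protein of the small subunit, stood furthest above the other members. It was at 12551 CPM (NC) and 11646 CPM (WD) in naive- or memory-like cells, 9393 and 8672 CPM in the Gzma- and Ifit3-led cells, 5304 and 4950 CPM in effector-like cells, and 3673 and 3694 CPM in proliferating-like cells. The order of these states was the same in both libraries, and the log2 ratio of naive- or memory-like over proliferating-like was 1.77 (1.75 to 1.79) in NC and 1.66 (1.64 to 1.68) in WD. Rpl41, the highest member, differed little between these states, with ratios of -0.11 and -0.13.

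**Figure D2:**
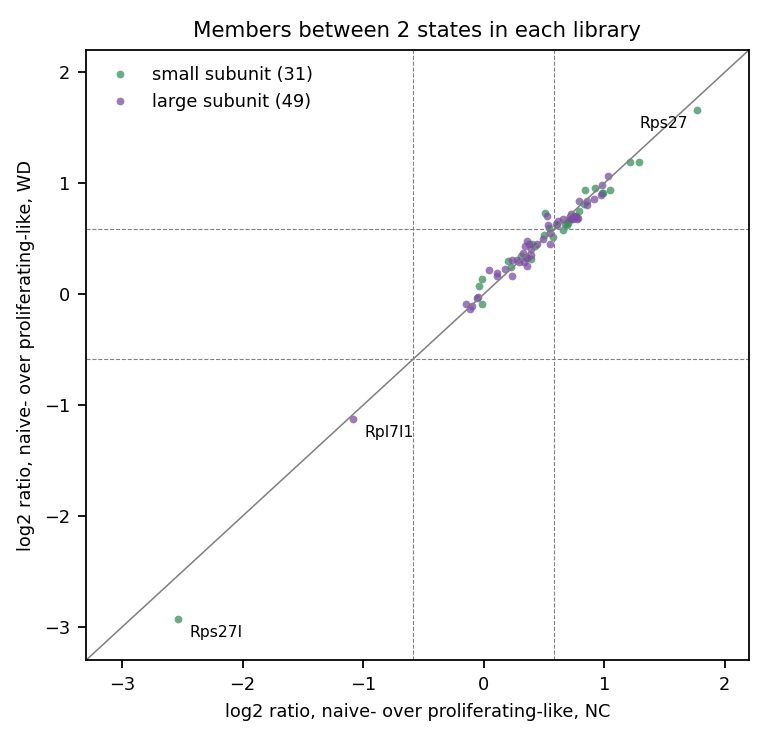
Log2 ratio of CPM, naive- or memory-like over proliferating-like cells, for 80 of the 81 members within the limits, in the NC library (horizontal) and the WD library (vertical). Dashed lines mark a fold of 1.5 and the solid line equal ratios; Rps27 lies at 1.77 and 1.66, Rps27l at -2.53 and -2.93, and Rpl7l1 at -1.08 and -1.12.

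The stalk proteins, which reach out of the large subunit and draw in translation factors, split. Rplp1 had a log2 ratio of 0.98 over proliferating-like cells, Rplp2 0.58 and Rplp0 0.31, as means of both libraries. Among 6 members known to bind Mdm2, the ubiquitin ligase that restrains p53, Rps7 (0.94), Rpl23 (0.81) and Rps3 (0.61) were past the fold, and Rpl26 (0.42), Rpl11 (0.34) and Rpl5 (0.13) were not. Rps27a, which is made fused to ubiquitin, had 0.54. Fau, which encodes a ribosomal protein fused to a ubiquitin-like protein and which the symbol rule leaves out, had 0.67 and was past the fold.

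Start sites are shown for the members furthest above and below, since the tract lies there. Of 84 members, 65 had an entry in the RefSeq promoter table (GRCm38.p6), with 77 starts. The letters CTTTC lay within 15 bases before to 15 after the start, on the coding strand, at 17 of 77 member starts (22.1%) and at 1330 of 32851 starts of all genes (4.05%). On the opposite strand they lay at 3 of 77 and 1182 of 32851. A run of at least 8 pyrimidines, which can overlap these letters, was found at 29 of 77 member starts and 3943 of 32851 of all. In the windows below, written 5′ to 3′ on the coding strand of the mouse genome GRCm38.p6, capitals mark the longest pyrimidine run.
Rps27 (chr3:90213634-90213663, minus strand): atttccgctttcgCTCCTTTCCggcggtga
Rps27l (chr9:66946071-66946100, plus strand): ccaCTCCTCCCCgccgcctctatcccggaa
Rpl7l1 (chr17:46782642-46782671, minus strand): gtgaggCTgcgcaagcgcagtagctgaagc
Rpl35 (chr2:39005117-39005146, minus strand): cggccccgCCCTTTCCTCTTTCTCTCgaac
Rpl12 (chr2:32961697-32961726, plus strand): ggcggagcaggatccgTCTTTTCggctttc
The run was 9 bases for Rps27, where it crossed the annotated start. It was also 9 bases at the first of 2 starts of Rps27l, but there it lay wholly before the start. At the second start of Rps27l, not shown, the longest run was 4 bases. For Rpl7l1 it was 2 bases, and no longer run lay in the window. Rpl35 and Rpl12, described with the diets, had 18 and 7. The table's starts are annotated, not measured here, and a run near them is a description of the letters.

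Several ribosomal protein genes form a pair with a related gene, in some cases a near copy, and the mix of a pair differed between states. Rps27l (chr9:66946086-66949516, plus strand, 4 exons), the copy of Rps27 known as a p53 target, had the opposite order of states. It was at 98.9 CPM (NC) and 74.4 CPM (WD) in naive- or memory-like cells, 111 and 99.4 CPM in Gzma- and Ifit3-led cells, 294 and 334 CPM in effector-like cells, and 572 and 566 CPM in proliferating-like cells. Its log2 ratio, naive- or memory-like over proliferating-like, was -2.53 (-2.67 to -2.39) in NC and -2.93 (-3.11 to -2.75) in WD, the lowest of all members. Of the UMIs of the pair, Rps27l took 0.78% and 0.64% in naive- or memory-like cells, 1.17% and 1.13% in Gzma- and Ifit3-led cells, 5.26% and 6.33% in effector-like cells, and 13.5% and 13.3% in proliferating-like cells. None of the intervals of these 4 states overlapped within a library. In the finer clusters, with both libraries summed, the share ran from 0.45% in the Lef1- and Ccr7-led cells to 14.6% in the histone-led dividing cells. Only 3.17% of the 90-base windows of the last 500 bases of Rps27l occur in another gene, against 98.4% for Rps27, whose own level is uncertain for that reason.

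Rpl7l1 (chr17:46773907-46782672, minus strand, 7 exons), a relative of Rpl7, took 1.62% and 1.34% of the pair in naive- or memory-like cells and 4.31% and 3.89% in proliferating-like cells. Rpl36al, an intronless copy of Rpl36a, took 27.1% and 24.8% in naive- or memory-like cells against 41.96% and 38.2% in proliferating-like and 42.5% and 36.4% in effector-like cells. Its own level hardly differed, at 1110 and 1037 CPM in naive- or memory-like and 1190 and 1115 CPM in proliferating-like cells, while Rpl36a stood at 2986 and 3144 CPM in the former and 1645 and 1805 CPM in the latter. Rpl22l1, whose parent Rpl22 is needed for alpha-beta T cell development, took 33.5% and 32.8% in naive- or memory-like and 39.4% and 36.3% in proliferating-like cells. Rpl22l1 itself was lower in proliferating-like cells, at 1427 and 1297 CPM against 1619 and 1518 CPM in naive- or memory-like cells. In all 3 of these pairs the share of the second gene was higher in proliferating-like than in naive- or memory-like cells in both libraries, with no overlap of the intervals. Shared 90-base windows, which the intervals do not cover, made up 84.0% for Rpl36a, 64.5% for Rpl36al, 60.1% for Rpl7, 49.6% for Rpl22l1 and 0% for Rpl7l1 and Rpl22.

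**Figure D3:**
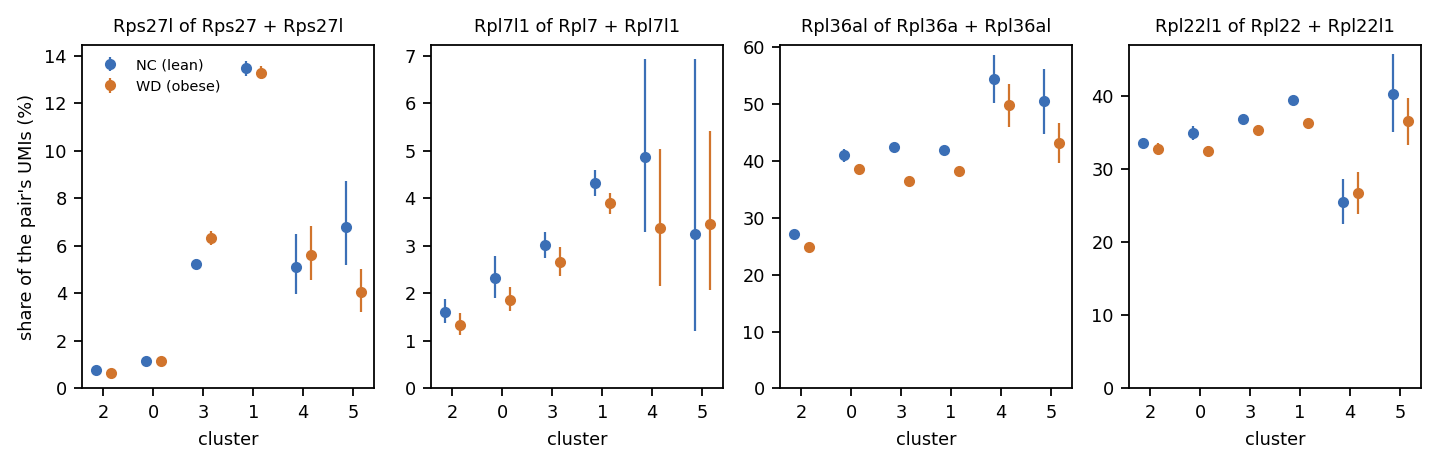
Share of each pair's UMIs that came from the second gene, by cluster and library, with exact binomial 95% intervals. The Rps27l share runs from 0.78% and 0.64% in cluster 2 to 13.5% and 13.3% in cluster 1, and the Rpl36al share is lowest in cluster 2, at 27.1% and 24.8%.

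Between the diets, the share over all cells was 0.30 percentage points lower in WD than in NC, a log2 ratio of -0.014 (-0.015 to -0.012). This direction did not hold when clusters were weighted equally (log2 ratio 0.032) or when shares were averaged over cells (0.00054). Within clusters the share was slightly higher in WD in the Gzma- and Ifit3-led, the proliferating-like and the effector-like cells, by 0.37, 0.18 and 0.64 percentage points, and 0.10 points lower in naive- or memory-like cells. Both finer parts of the effector-like cells were nonetheless lower in WD (Gzmd- and Gzmf-led 29.3% to 29.2%, Ccl1-led 34.2% to 33.4%), and the mix of the parts differed, with 520 NC and 180 WD cells in the former and 100 and 123 in the latter. Both finer parts of the naive- or memory-like cells were lower in WD by more than their sum (Klra7-led 44.4% to 43.9%, Lef1- and Ccr7-led 46.1% to 45.6%). Their mix differed too, with 456 NC and 220 WD cells in the former and 121 and 199 in the latter. The naive- or memory-like cells with their high share were 572 of 2456 cells in NC and 411 of 2289 in WD. The difference between diets was largest, of the 6 clusters, in cluster 4, at 12.1% against 14.3%, a log2 ratio of 0.24 (0.23 to 0.25). Those cells were also deeper in WD. With cells thinned to 2000 UMIs, which dropped 94 of 276 NC and 48 of 187 WD cells with fewer UMIs, the log2 ratio was 0.16. Thinning keeps a cell's expected share and changes only which cells count and with what weight, so depth was not adjusted for. Without the hemoglobin-rich droplet, and unthinned, the log2 ratio was 0.25.

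Member by member, 36 of 81 were higher and 45 lower in WD, and the median log2 ratio was -0.034, beside 0.035 for all 7059 genes compared. With the clusters weighted equally the members' median was 0.013. Past a fold of 1.2, 11 members (13.6%) were higher in WD, beside 11.9% of all genes, and 1 was lower, beside 5.99%. With scaling by TMM factors, which are set from the bulk of genes, 6 members were higher and 2 lower. The share of all genes past the fold was not counted under this scaling. The other 69 members lay within 1.2-fold, and for 5 of 81 the counting interval included 0.

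Rpl35 (chr2:39001580-39005624, minus strand, 4 exons), a large subunit protein near the exit of the peptide tunnel, was the member that was lower in WD. It was at 2843 CPM in NC and 1539 CPM in WD, 1.85 times as high in NC, with a log2 ratio of -0.89 (-0.90 to -0.87). The ratio was alike in naive- or memory-like (4006 and 2193 CPM), proliferating-like (2851 and 1556 CPM), effector-like (2583 and 1481 CPM) and Gzma- and Ifit3-led cells (2401 and 1294 CPM), between -0.89 and -0.80. In cluster 4 it was 540 and 499 CPM, a ratio of -0.12. Without Rpl35 the share over all cells was 31.3% in NC and 31.1% in WD. The next lowest members were Rpl10 (-0.23), Rpl24 (-0.20), Rps28 (-0.18) and Rpl37 (-0.16), none past the fold.

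Rpl12 (chr2:32961559-32965345, plus strand, 7 exons), which lies at the base of the stalk, was highest in WD, at 1427 CPM in NC and 2135 CPM in WD, a log2 ratio of 0.58 (0.56 to 0.60). In naive- or memory-like cells it was 2481 and 3735 CPM, and in proliferating-like cells 1212 and 1783 CPM. Rplp1 was second, at 2939 and 4360 CPM, a ratio of 0.57 (0.56 to 0.58), while its stalk partners differed less, with 0.12 for Rplp2 and -0.09 for Rplp0. Rps25, which several viral internal entry sites need, was at 993 and 1398 CPM, a ratio of 0.49 (0.47 to 0.52). Rps12 followed with 0.41, Rps15 with 0.40, Rpl23a with 0.31, Rpl17 and Rpl13a with 0.30 each, Rps14 with 0.29, and Rps6, the substrate of the S6 kinases, with 0.28. The 6 Mdm2-binding members lay between -0.11 (Rpl11) and 0.24 (Rpl5).

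The pattern over members was much the same in every large cluster. All 12 members past the fold kept their direction in clusters 0, 1, 2 and 3. They were chosen on sums over all cells, and these clusters hold most of the UMIs, so this agreement was partly fixed in advance. Across the 81 members, Pearson's r of the log2 ratio between 2 of these clusters ran from 0.90 to 0.97, with the same pair of libraries behind every point. Without clusters 4 and 5 the count past the fold was again 12, with 11 higher.

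**Figure D4:**
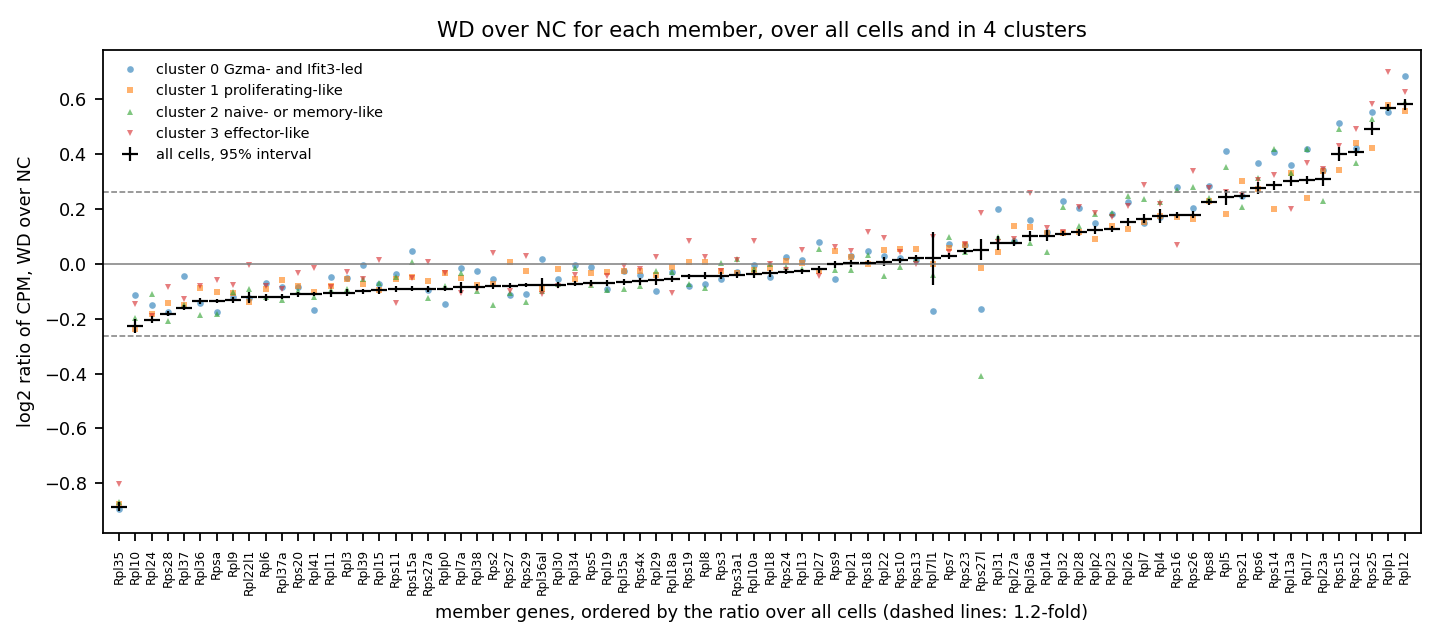
Log2 ratio of CPM, WD over NC, for 80 of the 81 members within the limits, ordered by the ratio over all cells (black, with exact 95% intervals), with the ratios in clusters 0, 1, 2 and 3 as colored points. Rpl35 lies at -0.89 and Rpl12 at 0.58, and Rps27l has the widest spread between clusters, from -0.41 to 0.18.

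Some of these genes share sequence with processed copies, so their single values are uncertain. Over the last 500 bases, the share of 90-base windows found in another gene was 0% for Rpl12, 24.6% for Rps25, 36.6% for Rplp1, 68.1% for Rpl35 and 96.6% for Rps12. Its median was 51.1% over the 12 members past the fold and 37.5% over the others, and across the 81 members Pearson's r between it and the absolute deviation from the median ratio was 0.02. The 12 were lower in level, with a median of 1703 CPM against 4380 CPM. Gm2000, a gene that shares windows with Rpl35, was at 203 CPM in NC and 213 CPM in WD, a log2 ratio of 0.07 (0.01 to 0.12).

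A copy and its parent had ratios of opposite sign for Rpl10, Rps27 and Rpl9. Rpl10-ps3 was at 102 CPM in NC and 236 CPM in WD, a log2 ratio of 1.22 (1.15 to 1.28), while Rpl10 had -0.23, and the ratio of their summed UMIs was -0.002 (-0.026 to 0.021). Rps27rt, a retrogene copy of Rps27, was at 442 and 781 CPM, a ratio of 0.82 (0.79 to 0.85), Rps27 had -0.08, and their sum had 0.003 (-0.006 to 0.013). Rpl9-ps6 (0.59) and Rpl36a-ps1 (0.80) were also higher in WD, against -0.13 for Rpl9 and 0.10 for Rpl36a. Here the summed UMIs stayed close to the parent, at -0.11 (-0.12 to -0.10) for Rpl9 with Rpl9-ps6 and 0.11 (0.09 to 0.13) for Rpl36a with Rpl36a-ps1. How the counts were divided between copies was not tested.

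Other genes of translation were counted the same way, beside the 11.4% higher, the 34% lower and the median of -0.39 of all genes. The higher member share in naive- or memory-like cells lowers the CPM of these genes too. Past a fold of 1.5 in both libraries, none of 75 mitochondrial ribosomal protein genes compared was higher in naive- or memory-like than in proliferating-like cells and 53 were lower, with a median log2 ratio of -0.92, from 0.45 (Mrpl30) to -1.71 (Mrpl27). Of 30 translation initiation genes 1 was higher (Eif4a2, 0.79) and 14 lower, with a median of -0.58 and the lowest ratio for Eif4e (-1.86), the cap-binding protein. Of 36 genes of ribosome assembly and the nucleolus 12 were lower, a share near that of all genes, and none higher, with a median of -0.54, from Utp14a (0.71 as a mean, with 0.58 in WD) to Nhp2 (-1.42). Against effector-like cells, 6.79% of all genes were higher and 25.8% lower, with a median of -0.31. There the same list had a median of 0.33 over 35 genes. Gnl3 and Utp14a were higher, a share near that of all genes, and none was lower. Of 13 RNA polymerase I genes 7 were lower and none higher (median -0.67, from Taf1d at 0.20 to Polr2k at -1.11).

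The elongation list had a median of 0.06 over 7 genes, and 0.30 against effector-like cells. Tpt1 (0.90), the translationally controlled tumor protein, which is not an elongation factor and whose message carries a pyrimidine tract, was its gene past the fold upward, and Eif5a (-0.87) was lower. Of 9 host genes of small nucleolar RNAs, Rack1 among them, a class whose messages often start with the tract, 4 were higher and none lower, from Snhg8 (1.23) to Snhg6 (-0.71), whose 2 libraries were not both past the fold. The median was 0.36, and against effector-like cells it was 0.45, beside the members' 0.55 and 0.49. Against effector-like cells 4 of the 9 were again higher and none lower, where 6.79% and 25.8% of all genes were. Among 13 regulators of ribosomal protein synthesis, 2 were higher and 5 lower, shares near those of all genes. Myc was highest, at 109 and 92.2 CPM in naive- or memory-like and 35.4 and 40.0 CPM in proliferating-like cells, a ratio of 1.41, and the import factor Ipo5 was lowest, at -1.43. Of 7 genes of ribosome quality control 2 were lower, also near that share, and none higher (median -0.53, from Ascc3 at 0.30 to Pelo at -1.03).

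Between diets, 11.9% of all genes were higher and 5.99% lower past 1.2-fold, with a median log2 ratio of 0.035. The median log2 ratio, WD over NC, was -0.04 for the mitochondrial ribosomal proteins (2 of 77 higher past 1.2-fold, none lower) and 0.08 for initiation (2 of 30 higher). It was 0.12 for assembly and nucleolus (7 of 36 higher, led by Nolc1 at 0.38), 0.06 for the elongation list (only Tpt1 past the fold, 0.39) and 0.03 for RNA polymerase I (2 higher, 2 lower, with Polr2l lowest at -0.58). The hosts with a pyrimidine tract had the highest median, 0.29, with 5 of 9 higher, from 0.13 (Snhg1) to 0.38 (Snhg8). The regulators had 0.03, with 2 higher (Trp53 at 0.35) and 1 lower (Eif4ebp1 at -0.58), and quality control had 0.06 with none past the fold. Fau had -0.12.

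Over the 10 profiles of clusters 0 to 4 in both libraries, the genes outside these lists whose log2 CPM was most like the log2 of the member share, among 4113 genes with at least 50 CPM in 1 profile, were Gm2000 (Pearson's r 0.98), Mri1 (0.97), Nsa2 (0.97), Gm11808 and Smim4 (0.96 each), 2310039H08Rik and Tmsb10 (0.96 each), Bola2 (0.96), Smim27 and Psmg4 (0.95 each). Cluster 4, the lowest in share, weighs in each of these values, and the profiles of a cluster share their definition.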

How the data were processed

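Single-cell RNA was measured in CD8+ TIL, in 1 library per diet. The deposited values are counts of UMIs per gene and cell, made by the authors with Cell Ranger 6.0.2 and, per the submitters' processing notes, the genome build mm10. They were not normalized. Samples were grouped by the phenotype in their labels. Counts were processed in Python 3.11.15 (numpy 2.4.6, scipy 1.17.1, pandas 2.3.3). The study's filters (mitochondrial UMIs below 7.5% of the cell, total between 500 and 50000) were applied, which left out 241 NC and 334 WD cells of the 2697 and 2623 deposited. The study gives 2697 and 2623 as its own cell counts after filtering, the same as deposited. Doublets were not called. UMIs were summed per library and cluster and given as CPM or percent. CPM limits carry exact Poisson, shares exact binomial (Clopper-Pearson) and log2 ratios exact conditional binomial 95% intervals. A count of 0 allows up to 3 UMIs per library. Intervals ignore differences between mice, and the sequencing depth (median 7958 and 9103 UMIs per cell) sets them alone.

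Clusters were made with Seurat 5.3.0 in R 4.3.3 (2000 variable genes chosen without the members and their pseudogenes, 20 principal components, 20 neighbours) at the lowest resolution giving 6 clusters, 0.15, and at 0.8 for the 13 finer ones. Clusters were named from marker lists by their 10 leading genes. Ratios between states were computed in each library and averaged. A member was called past 1.2-fold between diets and past 1.5-fold, in both libraries, between states. Positions are from GENCODE vM21 on GRCm38. The steps were tested on simulated data. Genes named are the 10 highest members, the 5 highest and 5 lowest diet ratios, members over 0.3 (diet) or 0.75 (state) from the members' median, members under 20 UMIs, the paralog pairs, the stalk and Mdm2-binding members, the pseudogenes of named members, the highest and lowest gene of each list and the 10 genes most alike. Other named genes were chosen after their values were seen. The members, lists and tests were chosen with earlier results of these data known. Alternatives were other cell filters, thinning, totals, clusterings, marker-defined states, edgeR 4.0.16 TMM factors, limits and folds. Removal of the hemoglobin-rich droplet or of Rpl35, and the thinning within cluster 4, were chosen after seeing the data. Values of some single genes that this rule names are not reported here.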

Additional observations from a re-analysis of the deposited data

Results flagged for a closer look

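Among clusters 0, 1, 2 and 3, 1 member had diet ratios of opposite sign in 2 states that lay over 0.3 apart, with counting intervals that both left out 0. With the shallow cluster 4 counted, further members did so. Rpl39, for example, had 0.61 (0.50 to 0.73) in cluster 4 and -0.07 (-0.09 to -0.06) in proliferating-like cells. Rps27l was higher in WD in effector-like cells, with a log2 ratio of 0.18 (0.09 to 0.28), and lower in WD in naive- or memory-like cells, with -0.41 (-0.64 to -0.19), a gap of 0.59. The naive- or memory-like value rests on 445 UMIs in NC and 256 in WD, and the effector-like value on 2431 and 1554. With both libraries summed, Rps27l took 0.82% of its pair in the Klra7-led and 0.45% in the Lef1- and Ccr7-led naive- or memory-like cells. These parts held 456 and 121 cells in NC and 220 and 199 in WD, and the diet ratio within each part was not computed. Among clusters 0, 1, 2 and 3, other members changed sign by smaller gaps, also with intervals that left out 0. Rps29, for example, had -0.14 in naive- or memory-like and 0.03 in effector-like cells. With 1 library per diet none of these differences was tested.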

How the results depend on the processing

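No paired analysis was possible because each diet has 1 library, and for the same reason no replicate could be left out. The log2 ratio of the member share, WD over NC, reversed from -0.014 to 0.032 with clusters weighted equally and to 0.00054 as a mean over cells. It was -0.018 with all deposited cells, -0.012 with stricter cell filters, -0.016 with cells free of other lineages, -0.0051 without mitochondrial genes in the total, -0.018 without the shallow or small clusters and -0.0098 without Rpl35, an alternative chosen after seeing the data. The median member ratio reversed from -0.034 to 0.013 with clusters weighted equally and was -0.079 with TMM scaling. The 12 members past 1.2-fold became 24 at a fold of 1.1 and 1 at 1.5. The share of all genes past those other folds was not counted. The naive- over proliferating-like ratio of the share (0.620) was 0.617 with 10 principal components, 0.617 with 30, 0.617 at resolution 0.8, 0.581 with states set by marker UMIs, 0.633 without mitochondrial genes, 0.626 in NC alone and 0.614 in WD alone. The naive- over effector-like ratio (0.558) was 0.554 with 30 components, 0.562 with marker UMIs, 0.569 without mitochondrial genes, 0.566 as a mean over cells, 0.569 after thinning, 0.575 in NC alone and 0.541 in WD alone. Clusters of other settings were matched to a state by the cells they shared with it. The causes were not tested. Depth sets the counting intervals, which included 0 for the diet ratio of 5 of 81 members, and the spread between libraries of a diet was not measured.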
